A study of Mus musculus with 14 samples.

Results

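The glycolysis and hypoxia response genes are 35 genes from a list of symbols chosen with earlier results of these data known. They are 35 of 28316 genes in the retina table and 35 of 26528 in the brain table. By role they are 15 glycolytic enzymes, 2 enzymes that set the level of fructose 2,6-bisphosphate (*Pfkfb3* and *Pfkfb4*), 3 genes of the pyruvate and lactate step (*Ldha*, *Ldhb* and *Pdk1*), 2 transporters (*Slc16a3* and *Slc2a3*), 2 mitophagy receptors (*Bnip3* and *Bnip3l*), 7 other genes known to respond to low oxygen, and 4 oxygen sensors or subunits of the hypoxia-inducible factors (*Egln1*, *Egln3*, *Hif1a* and *Epas1*). UMIs, which count molecules, were summed over the nuclei of each deposited cell type label in each library and scaled to the total UMIs of that type and library (CPM), and knockout was compared with control in 11 retinal and 21 brain types. The question was in which cell types these genes differed most.

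When oxygen is plentiful, the prolyl hydroxylases mark the alpha subunits of the hypoxia-inducible factors (HIF) for destruction. When oxygen is scarce the subunits persist, bind DNA and raise transcription of genes for glucose uptake, glycolysis, lactate export and vessel growth, while pyruvate is kept from the mitochondria. The retina has a high glucose demand, photoreceptors make much lactate, and the inner retina depends on intraretinal vessels while the photoreceptors are fed mainly by the choroid.

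Single-nucleus RNA sequencing (PIPseq) was run on whole mouse retinas, 1 control and 11 knockout libraries, and on brain vascular fragments, 1 control and 1 knockout library. Knockout (CKO) mice were *Cdh5CreER;Tgfbr1 CKO/-*: Cre is driven in endothelial cells, and 4-hydroxytamoxifen was given from P3 to P5 to remove the TGF-beta receptor gene *Tgfbr1* there. Control mice are called wild type in the labels and phenotypically wild type by the authors, who use that term for mice that typically carry Cre and an intact allele beside the floxed one. The genotype of the control libraries was not found in the sources used, and whether they received 4-hydroxytamoxifen was not stated. Nuclei came from mice at P14 by the methods, while the labels say young adult. Each brain library pooled a pair of brains, and the number of mice behind each retinal library was not found in the sources used. The labels name mm10 as the genome build and the methods name GRCm39.

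The retinal control held 11513 nuclei and 30989702 UMIs. The 11 CKO retinal libraries held 104 to 18862 nuclei (median 4210) and 90449 to 55803724 UMIs. In the brain, the control held 16649 nuclei and 49798325 UMIs and the CKO library 14675 nuclei and 31033373 UMIs. Between 0 and 4 barcodes per retinal library also occurred in another library. The deposited table assigns the control and CKO 1 to CKO 3 to batch 1, CKO 4 and CKO 5 to batch 2 and the others to batch 3. CKO 8 to CKO 11 used the v5 kit and all others the v4 kit. Batches 2 and 3 hold CKO libraries alone, so batch was a term of the fit: the genotype difference is the one within batch 1, and the other libraries add to the estimate of spread.

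Several libraries stood apart. CKO 4 held 104 nuclei and no rods, and enters with at least 10 nuclei in immune cells and ganglion cells alone. From CKO 4 and CKO 5 the authors removed clusters by hand. CKO 7 and CKO 10 were often the lowest CKO libraries for the genes given below. *Xist* was high in the control, CKO 1, CKO 2, CKO 4 and CKO 7, and *Uty* in the other CKO libraries, with CKO 4 holding both (6291 and 55.3 CPM), so sex differs between libraries, and *Pgk1* is X-linked. No retinal label stands for endothelial cells, the only cells with Cre, and *Cdh5* held 0 to 13 UMIs in a whole retinal library. *Tgfbr1* had 89.0 CPM when all control nuclei were summed, and 71.4 to 87.0 in the CKO libraries other than CKO 4 (365).

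Across the retina 3 member genes rose in the knockout and none fell: *Aldoa* in Müller glia (label MG), and *Hk2* and *Pfkp* in rod bipolar cells (RBC). Those 3 are of 356 gene and cell type pairs tested (edgeR quasi-likelihood, Benjamini-Hochberg adjusted p under 0.05 over all genes of the type). By the same rule 0.0182% of all genes were called up. Far more member pairs lay above 0 than below it. The fitted log2 fold change was above 0 in 303 of the 356, where the share over all genes was 47.8% to 58.6% by type, and the unadjusted p was under 0.05 in 120 upward and in 1 downward, where 1.88% to 5.81% of all genes of a type had such a p upward. In 20 of the 303 the control held 0 UMIs, so these could lie only above 0, and of the other 336 pairs 283 were above 0. The list was chosen with earlier results of these data known. The excess over all genes, here and in the counts and medians below, is therefore a description and not independent support. DESeq2 called 15 up and 0 down, against 0.0791% up over all genes. The p-values measure spread between libraries only, and they take the lone control to have the same spread as the CKO libraries. Leaving out CKO 10 gave 14 called pairs (0.0364% of all genes called up), and leaving out CKO 3 gave 6 (0.0305%). Without CKO 8, CKO 9 or CKO 11 the count was 1 (0.0121%, 0.00723% and 0.00856% of all genes). With the kit alone as covariate it was 0 (0.00420%).

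**Figure D1:**
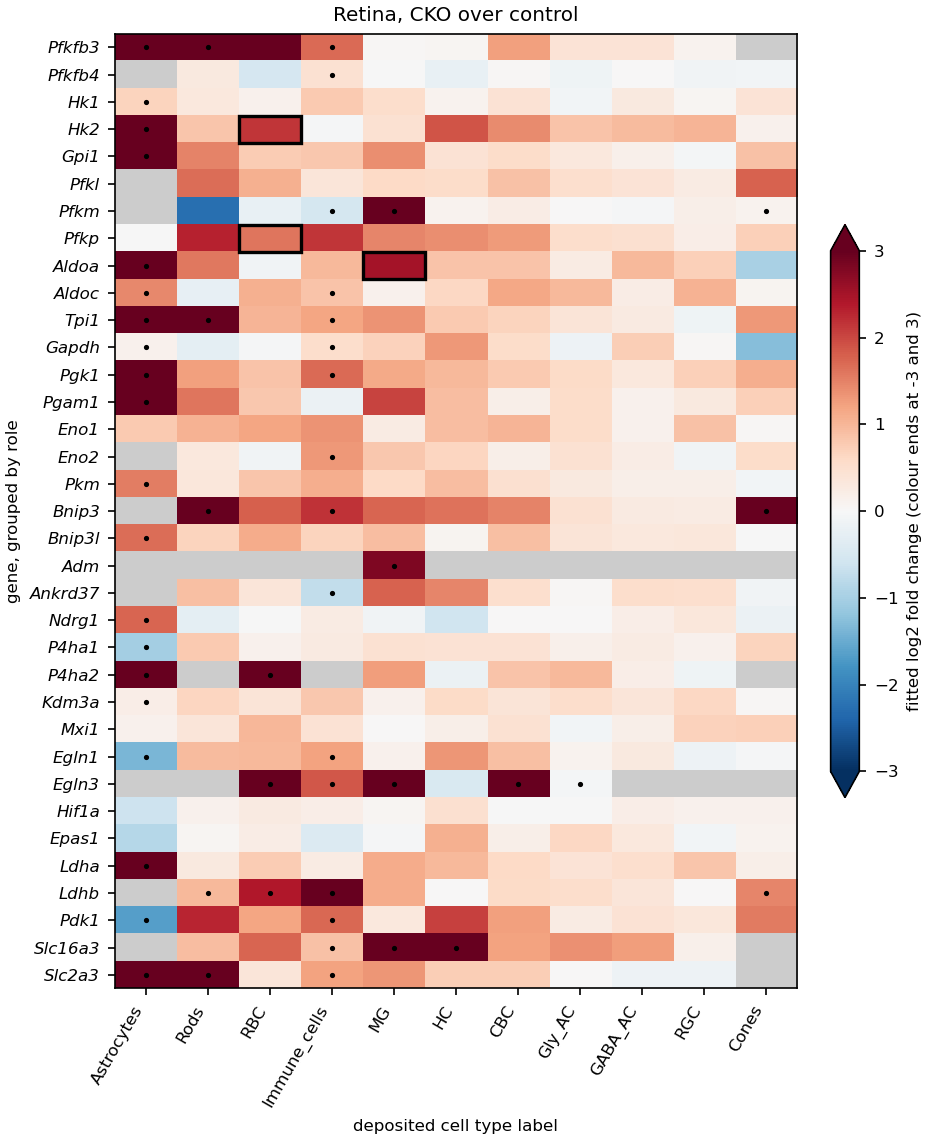
Fitted log2 fold change (CKO over control) of the 35 genes, grouped by role, in the 11 retinal cell types, ordered by the median over the genes. Black outlines mark the 3 pairs with an adjusted p under 0.05, dots mark 3 or fewer UMIs in the control, whose fitted values are no bound, and grey is not tested. In each of the 11 types more members are above 0 than below it.

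The order of cell types was taken from the median log2 fold change over the members tested. The largest was 1.53 in astrocytes, but that type had 12 control nuclei and 10 members at 0 UMIs in the control. With those members at the bound that a count of 0 allows (3 UMIs) the median was 0.16. The fitted median over all genes of that type was 0.32, with genes at 0 UMIs in the control not set to a bound, so these values are not comparable. Rods (0.86), rod bipolar cells (0.85), immune cells (0.81) and Müller glia (0.81) came next, followed by horizontal cells (HC, 0.68) and cone bipolar cells (CBC, 0.64). Glycinergic amacrine cells (Gly_AC, 0.39), GABAergic amacrine cells (GABA_AC, 0.30), ganglion cells (RGC, 0.18) and cones (0.13) ended the order. The medians over all genes lay between -0.01 and 0.10 in these 10 types. Without TMM factors the median over all genes moved by 0.18 in horizontal cells, and that of the members to 0.86. In the nuclei labelled immune cells, the 8 markers of immune cells other than microglia summed to 17.5 CPM in control and a CKO median of 349, above in 11 of 11, and the 6 rod bipolar markers to 3992 and 1097, above in 0 of 11. The part of that difference in the rank of immune cells was not tested. The cone median was 0.58 without CKO 1, above those of both amacrine types and ganglion cells, and 0.01 without CKO 2. With members at 0 UMIs in the control at their bound, the median was 0.59 in cone bipolar cells and 0.81 in immune cells.

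Library by library, the order was not the same. For each CKO library and type, the median log2 ratio of the members to the control library was taken relative to the same median over all genes, which itself ran in rods from -0.41 (CKO 7) to 0.21 (CKO 11). In rods the members' median so taken ran from 0.56 (CKO 5) to 1.63 (CKO 11), with a median of 0.78. In rod bipolar cells it ran from 0.14 (CKO 10) to 1.09 (CKO 5), and in Müller glia from 0.36 (CKO 10) to 0.80 (CKO 9). The ranges overlap. Rods were above rod bipolar cells in 6 of 10 libraries and above Müller glia in 9 of 10, where the medians not taken relative to all genes gave 6 of 10. Horizontal cells (0.16 to 0.84) and cone bipolar cells (0.14 to 1.05) were below rods in 8 and 7 of 10. By the medians not taken relative to all genes, rods were above horizontal cells in 4 of 10, so that order turned. They were above cone bipolar cells in 6 of 10. Immune cells, above horizontal cells in the fitted order, were below them in 8 of 10 libraries. Glycinergic amacrine cells (0.096 to 0.48) were below rods, rod bipolar cells, Müller glia, horizontal cells and cone bipolar cells in 10 of 10 libraries.

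GABAergic amacrine cells (0.16 to 0.48) were below rods and Müller glia in 10 of 10 libraries, and below both bipolar types and horizontal cells in 9 of 10. In ganglion cells the library median relative to all genes ran from -1.43 (CKO 4) to 0.31 (CKO 2). Cones ran from -0.40 (CKO 6) to 0.72 (CKO 2), with a median of 0.39 against 0.29 in GABAergic amacrine cells, 0.32 in glycinergic amacrine cells and 0.14 in ganglion cells. Cones were above ganglion cells in 8 of 10 libraries and above GABAergic amacrine cells in 6 of 10. By kit, cones lay between 0.49 and 0.65 in v5 libraries and between -0.40 and 0.72 in v4 ones. Immune cells ran from 0.00 (CKO 10) to 0.74 (CKO 8), and astrocytes from 0.37 to 1.16 over 8 libraries. Without CKO 1, which leaves the control and CKO 2 in batch 1, the fitted astrocyte median was -1.31. The members' library median exceeded that of all genes in every library in rods, rod bipolar cells, Müller glia, horizontal cells, cone bipolar cells and both amacrine types. It did so in 10 of 11 in immune cells, 9 of 11 in ganglion cells and 8 of 10 in cones. In astrocytes it did so in 8 of 8. However, 10 of the 25 members there held 0 UMIs in the control and passed the minimum of UMIs through the CKO libraries alone. The astrocyte count therefore decides nothing.

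**Figure D2:**
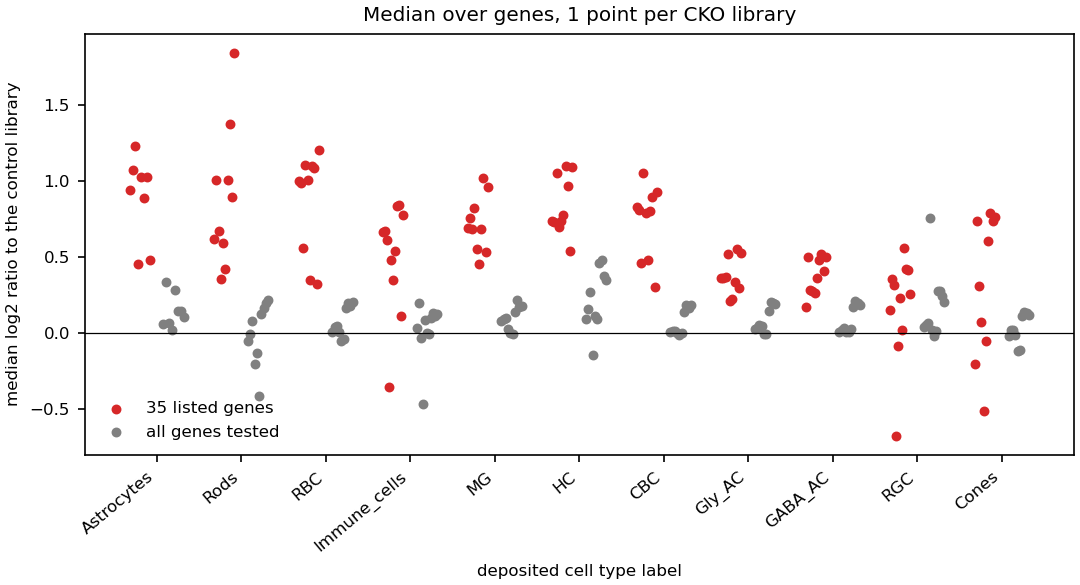
Median log2 ratio to the control library over the 35 listed genes (red) and over all genes tested (grey), 1 point per CKO library, by retinal cell type. The members' points, here not taken relative to all genes, lie between 0.46 and 1.02 in Müller glia and between -0.51 and 0.79 in cones.

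Differences between types were tested as the within-library difference from rods. Of 309 member and type pairs, 0 were called by limma on those differences (0.0203% of 113406 over all genes). At an unadjusted p under 0.05, 7 pairs lay above rods (2.27%, against 2.15% of all genes) and 60 below (19.4%, against 1.62%), and DESeq2 was not run on these differences. All types are set against the same rod libraries and the same lone rod control. A gene far above that control in CKO rods can thus recur in several types, as *Tpi1* and *Gpi1* did. The 60 pairs are not independent. The smallest p was that of *Tpi1* in cone bipolar cells, with a log2 difference of -3.22 (SE 0.489) and a limma adjusted p of 0.0835. With a prior count of 0.5 in place of 2 it became -4.33, with an adjusted p of 0.0271. *Tpi1* held 1 UMI in control rods, so the size of that difference depends on the prior count.

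The share of members past each rule was then read against all genes of the same type. In Müller glia 35 members were tested and 1 was called up, against 0.0294% of all genes. An unadjusted p under 0.05 upward was found for 17, against 5.81% of all genes, and 14 were above the control in every CKO library, against 9.24%. In rod bipolar cells 2 of 34 were called (0.0313% of all genes), 19 had an unadjusted p under 0.05 upward (3.55%) and 17 were above the control in every CKO library (7.12%). These are the types with a call. Leaving out CKO 3 gave 3 calls in Müller glia and leaving out CKO 2 or CKO 10 gave 2. In rod bipolar cells the count was 7 without CKO 10, 1 without CKO 1, and 0 without CKO 2, CKO 8, CKO 9 or CKO 11.

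In rods 0 of 32 members were called by edgeR quasi-likelihood (0.0533% of all genes) and 4 by DESeq2 (0.273%). An unadjusted p under 0.05 upward was found for 17 (2.25%), and 10 were above the control in every CKO library (3.58%). In cone bipolar cells 0 of 34 were called by edgeR quasi-likelihood (0% of all genes) and 4 by DESeq2 (0.106%), 24 had an unadjusted p under 0.05 upward (2.72%), and 16 were above the control in every library (7.01%). That was the type with the most members at an unadjusted p under 0.05. The count of calls there was 5 without CKO 10 and 1 without CKO 3. In horizontal cells 0 of 34 were called by edgeR quasi-likelihood (0%) and 0 by DESeq2, 14 had an unadjusted p under 0.05 upward (3.49%), and 20 were above the control in every library (10.6%).

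Glycinergic amacrine cells had 0 of 34 called by edgeR quasi-likelihood (0.0385%) and 0 by DESeq2, 10 at an unadjusted p under 0.05 upward (3.06%), and 12 above the control in every library (8.54%). GABAergic amacrine cells had 0 of 33 called by edgeR quasi-likelihood (0%) and 0 by DESeq2, 6 at an unadjusted p under 0.05 upward (1.88%), and 9 above the control in every library (5.76%). The difference of the amacrine types from the bipolar cells in these counts was not tested. Ganglion cells had 0 of 33 called by edgeR quasi-likelihood (0%) and 0 by DESeq2, 7 at an unadjusted p under 0.05 upward (1.92%), and 1 above the control in every library (2.64%). Cones had 0 of 29 called by edgeR quasi-likelihood (0.0358%) and 0 by DESeq2, 4 at an unadjusted p under 0.05 upward (2.61%) and 1 downward, and 3 above the control in every library (5.09%).

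Immune cells and astrocytes had the fewest nuclei, 29 and 12 in the control. Immune cells had 0 of 33 called by edgeR quasi-likelihood (0%) and 0 by DESeq2, 1 at an unadjusted p under 0.05 upward (2.17%), and 2 above the control in every library (6.67%). Astrocytes had 0 of 25 called by edgeR quasi-likelihood (0%) and 0 by DESeq2, 1 at an unadjusted p under 0.05 upward (3.8%), and 1 above the control in every library (12.5%). In astrocytes, *Epas1* and *Pdk1* were below the control in all 8 libraries. For these types the depth allows little: 3 UMIs in the astrocyte control correspond to 95.9 CPM.

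The glycolytic enzymes held all 3 calls. They made 162 of the pairs tested, with 142 above 0, 60 at an unadjusted p under 0.05 upward, 1 downward, and a median log2 fold change of 0.65. *Aldoa* (GRCm39 7:126393822-126399923, minus strand) encodes aldolase A, which splits fructose 1,6-bisphosphate. In Müller glia it stood at 14.6 CPM in control (22 UMIs) and at 35.6 (CKO 7), 81.9 (median) and 110 CPM (CKO 11) over 10 CKO libraries. Every CKO library was above the control and the groups did not overlap. *Aldoa* rose by a log2 fold change of 2.49 (SE 0.348, edgeR quasi-likelihood adjusted p = 0.00506, higher in 10 of 10). Over 23 alternatives the adjusted p ran from 2.04e-09 to 0.106, and *Aldoa* was called in 21. The call was lost with the kit alone as covariate (log2 fold change 2.21, adjusted p = 0.106) and with the v4 kit libraries alone (2.51, adjusted p = 0.0704), an alternative chosen after seeing the data.

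*Hk2* (6:82699740-82751469, minus strand) encodes hexokinase 2, which traps glucose as glucose 6-phosphate. Its level in rod bipolar cells was 31.1 CPM in control (65 UMIs) and at 36.9 (CKO 10), 126 (median) and 205 CPM (CKO 5) in the CKO libraries. No CKO library reached down to the control, though CKO 10 came close to it. *Hk2* rose by a log2 fold change of 2.15 (SE 0.364, edgeR quasi-likelihood adjusted p = 0.0354, higher in 10 of 10). The adjusted p for *Hk2* passed 0.05 without CKO 1 (0.0566), CKO 2 (0.0800), CKO 8 (0.0887), CKO 9 (0.0822) or CKO 11 (0.0718). Over 23 alternatives it ran from 3.47e-14 to 0.126, with 15 calls, some of them from the repeated fits named for *Aldoa*. It was 0.126 with the kit alone, 0.0581 with a minimum of 100 UMIs and 0.0666 when adjusted over all cell types.

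*Pfkp* (13:6629798-6698970, minus strand) encodes the platelet form of phosphofructokinase, the committing step of glycolysis. Rod bipolar cells had it at 400.0 CPM in control (837 UMIs) and at 707 (CKO 7), 1194 (median) and 1479 CPM (CKO 2) in the CKO libraries. The gap between the control and the lowest CKO library was wide. *Pfkp* rose by a log2 fold change of 1.61 (SE 0.267, edgeR quasi-likelihood adjusted p = 0.0354, higher in 10 of 10). The adjusted p for *Pfkp* passed 0.05 without CKO 2 (0.0800), CKO 8 (0.0887), CKO 9 (0.0822) or CKO 11 (0.0687). Over 23 alternatives it ran from 5.72e-18 to 0.188, with 15 calls, again including repeated fits. It was 0.188 with the kit alone, 0.0581 with a minimum of 100 UMIs, 0.0673 with the v4 kit libraries alone and 0.0593 when adjusted over all cell types.

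**Figure D3:**
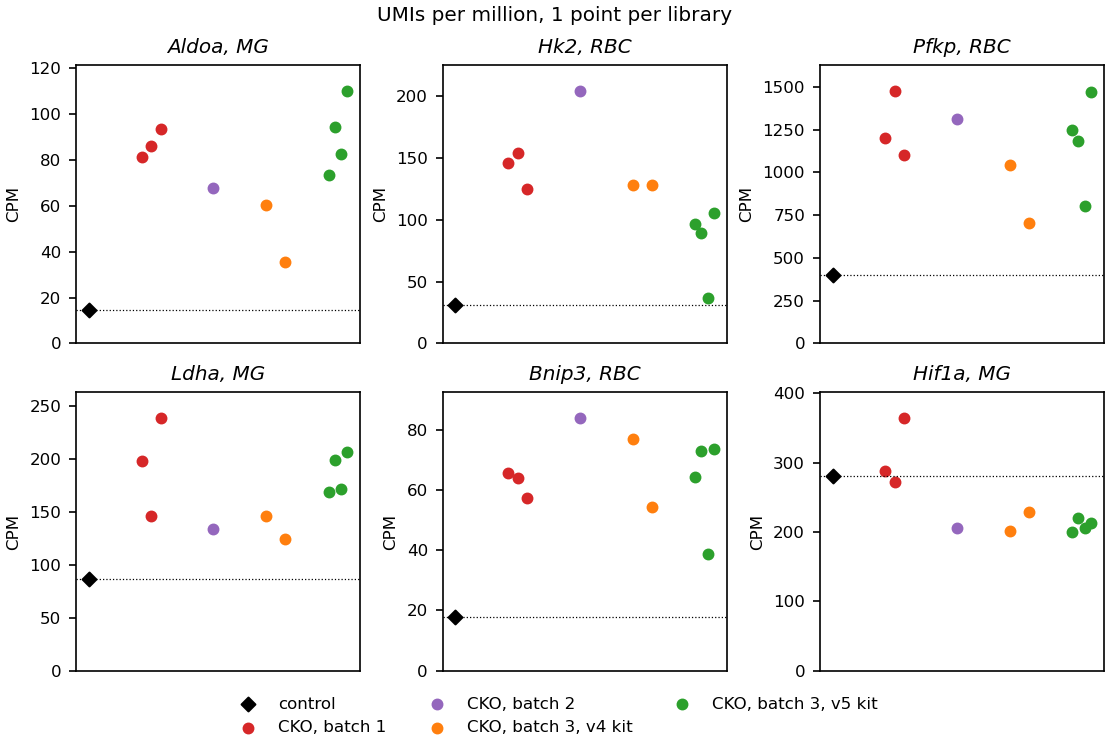
CPM of 6 pairs of gene and retinal cell type in each library, with the control as a black diamond and dotted line and the CKO libraries colored by batch and kit. For *Aldoa* in Müller glia and *Hk2* and *Pfkp* in rod bipolar cells all 10 CKO points lie above the control line, and for *Hif1a* in Müller glia 2 of 10 do.

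*Pfkp* outside rod bipolar cells was called under some alternatives alone. In cone bipolar cells it stood at 497 CPM in control and at 645, 1111 and 1403 CPM (lowest, median, highest) in the CKO libraries. All 10 lay above the control (log2 fold change 1.27, edgeR quasi-likelihood adjusted p = 0.142). The adjusted p was 0.0454 without CKO 3, 0.0300 without CKO 10 and 0.000337 by DESeq2, over a range of 1.24e-16 to 1.0 in 23 alternatives. In Müller glia *Pfkp* stood at 310 CPM and at 506, 808 and 1135, again with 10 of 10 above (1.46, edgeR adjusted p = 0.120). There it was called by DESeq2 (adjusted p = 0.00257), with no filter beyond 1 UMI (3.89e-11), without CKO 3 (0.0484) and without CKO 10 (0.0468). In GABAergic amacrine cells, where it had the smallest p of the members, *Pfkp* stood at 490 CPM and at 451, 634 and 764 (0.48, edgeR adjusted p = 1.0, higher in 8 of 10). Those groups overlap.

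In immune cells *Pfkp* again had the smallest p, at 96.1 CPM in the control (11 UMIs) and 0 (CKO 4), 332 and 542 CPM in the CKO libraries (2.15, edgeR adjusted p = 1.0, higher in 10 of 11). *Hk2* took that place in horizontal cells and glycinergic amacrine cells. In horizontal cells *Hk2* stood at 24.0 CPM in control and at 29.7, 75.6 and 123 in the CKO libraries, 10 of 10 above (1.89, edgeR adjusted p = 0.663). With a minimum of 50 nuclei per library the adjusted p was 0.00597, over a range of 0.00161 to 0.999 in 23 alternatives. In glycinergic amacrine cells *Hk2* stood at 42.7 CPM and at 36.7, 67.1 and 96.1, 8 of 10 above (0.86, edgeR adjusted p = 0.469).

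In cones the smallest p was that of *Pfkl*, the liver form of phosphofructokinase. It stood at 9.22 CPM in control (10 UMIs) and at 20.0, 38.7 and 56.9 CPM in the CKO libraries, 10 of 10 above (1.76, edgeR adjusted p = 0.743). Cones held the one pair with an unadjusted p under 0.05 downward, *Aldoa*, at 60.8 CPM in the control and 11.4 (CKO 6), 53.2 and 103 CPM (CKO 11) in the CKO libraries. The log2 fold change was -0.97 (p = 0.0196, edgeR adjusted p = 0.863), and 4 of 10 CKO libraries lay above the control. In rods *Tpi1*, triosephosphate isomerase, had the smallest p, with 1 UMI in the control (0.116 CPM, exact 95% interval 0.00294 to 0.648). The CKO rods stood at 0.352 (CKO 7), 8.37 and 37.0 CPM (CKO 11), 10 of 10 above the control (edgeR adjusted p = 0.159). *Pfkm*, the muscle form, went the other way in rods, with 4 UMIs in the control and 4 of 10 CKO libraries above it (log2 fold change -2.26, p = 0.123).

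*Pfkm* was among the members of largest fold in Müller glia. It held 3 UMIs in the control (1.99 CPM, exact 95% interval 0.409 to 5.80) and stood at 9.84 (CKO 6), 16.7 and 25.9 CPM (CKO 3) in the CKO libraries (edgeR adjusted p = 0.174). All 10 lay above that interval. *Pgk1*, phosphoglycerate kinase, and *Eno1*, enolase 1, were above 0 in 11 of 11 types. The median over types was 0.97 for *Pgk1* and 0.88 for *Eno1*. *Gapdh* was above 0 in 7 of 11, from -1.27 in cones to 1.30 in horizontal cells.

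The pair of regulators went apart. *Pfkfb3*, whose product activates phosphofructokinase, was above 0 in 10 of 10 types tested and *Pfkfb4* in 4 of 10. Together they made 20 pairs, 0 called by edgeR quasi-likelihood or DESeq2 except *Pfkfb3* in rod bipolar cells by DESeq2, with 3 at an unadjusted p under 0.05. *Pfkfb3* in rod bipolar cells stood at 3.35 CPM in control (7 UMIs) and at 8.39, 26.9 and 36.8 CPM in the CKO libraries, 10 of 10 above (3.20, edgeR adjusted p = 0.0919). *Pfkfb4* there stood at 12.9 CPM and at 6.00, 9.62 and 18.1, with 3 of 10 above.

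At the pyruvate and lactate step 31 of 32 pairs were above 0, with a median of 0.69 and 12 at an unadjusted p under 0.05. None was called by edgeR quasi-likelihood. DESeq2 called *Ldha* in Müller glia and *Pdk1* in cone bipolar cells and rods. *Ldha*, the lactate dehydrogenase subunit that favors lactate, was above 0 in all 11 types. In Müller glia it stood at 86.7 CPM in control (131 UMIs) and at 125 (CKO 7), 170 and 239 CPM (CKO 3), 10 of 10 above and without overlap (1.104, edgeR adjusted p = 0.0963). In ganglion cells, where it had the smallest p, *Ldha* stood at 55.6 CPM and at 0 (CKO 4), 96.0 and 146 (0.83, edgeR adjusted p = 1.0, higher in 8 of 11). The same gene had the smallest p in astrocytes, with 0 UMIs in control and 0, 149 and 243 CPM in CKO nuclei, 7 of 8 above 0. No fold is given, since the batch 1 mean of 89.9 CPM was below the floor of 95.9.

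*Pdk1*, pyruvate dehydrogenase kinase, keeps pyruvate from the mitochondria. Rod bipolar cells held it at 42.5 CPM and at 50.4, 92.2 and 131 CPM in the CKO libraries, 10 of 10 above (1.19, edgeR adjusted p = 0.212). In rods *Pdk1* stood at 10.2 CPM and at 12.4, 33.4 and 67.4, again 10 of 10 above (2.29, edgeR adjusted p = 0.626). In astrocytes it was below the control in all 8 libraries, from 3 control UMIs. *Ldhb*, the subunit that favors pyruvate, was above 0 in 10 of 10 types with 0 at an unadjusted p under 0.05.

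The transporters made 19 pairs, 17 above 0 and 9 at an unadjusted p under 0.05, with a median of 1.20 and 0 called by edgeR quasi-likelihood or DESeq2. *Slc16a3* (MCT4) exports lactate. It was detected weakly in Müller glia, with 0 UMIs in the control and 0, 3.89 and 10.7 CPM in the CKO libraries, 8 of 10 above 0. The batch 1 mean was at least 3.11-fold the control, against a floor of 3 UMIs in the control library. *Slc16a3* in rod bipolar cells stood at 4.78 CPM and at 10.1, 16.9 and 28.6, 10 of 10 above (1.74, edgeR adjusted p = 0.587). In cone bipolar cells it stood at 6.61 CPM and at 7.88, 15.7 and 22.8, and in glycinergic amacrine cells at 3.11 and at 6.14, 6.78 and 13.1, with 10 of 10 above in both. In horizontal cells the control held 0 UMIs and all 10 CKO libraries lay above 0, for a batch 1 mean at least 2.06-fold the floor. Rods (8 of 10), ganglion cells (8 of 11) and immune cells (7 of 11) were less uniform. *Slc2a3* (GLUT3), a neuronal glucose transporter, was above 0 in 8 of 10 types.

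The mitophagy receptors *Bnip3* and *Bnip3l* were above 0 in 20 of 21 pairs, with 10 at an unadjusted p under 0.05, a median of 0.89 and 0 called by edgeR quasi-likelihood. DESeq2 called *Bnip3* in rod bipolar cells and *Bnip3l* in cone bipolar cells. *Bnip3* in rod bipolar cells stood at 17.7 CPM in control (37 UMIs) and at 38.6 (CKO 10), 64.9 and 84.0 CPM (CKO 5). The groups did not overlap (1.79, edgeR adjusted p = 0.0815, higher in 10 of 10). In Müller glia *Bnip3* stood at 9.93 CPM and at 4.75 (CKO 7), 32.5 and 35.9, with 9 of 10 above (1.74, edgeR adjusted p = 0.194). In rods the control held 0 UMIs and the CKO libraries 0, 5.14 and 23.4 CPM, with 9 of 10 above 0. There the batch 1 mean was at least 13.9-fold the floor. That mean rests most on CKO 2 (10.5 CPM), with CKO 1 at 0.922 and CKO 3 at 3.13 CPM.

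The 7 other hypoxia response genes made 63 pairs, 52 above 0 and 17 at an unadjusted p under 0.05, with a median of 0.37 and 0 called by edgeR quasi-likelihood or DESeq2. *Adm*, the vasodilator peptide adrenomedullin, could be tested in Müller glia alone. It held 3 UMIs there in the control (1.99 CPM, exact 95% interval 0.409 to 5.80) and stood at 0 (CKO 10), 13.6 and 23.5 CPM (CKO 5), with 9 of 10 above the control (edgeR adjusted p = 0.421). *P4ha2*, a collagen prolyl hydroxylase subunit, held 0 UMIs in control rod bipolar cells and 2.52, 8.67 and 17.1 CPM in the CKO libraries, all 10 above 0 (edgeR adjusted p = 0.0919). The batch 1 mean was at least 9.96-fold the floor. *Kdm3a*, a histone demethylase, was above 0 in 11 of 11 types with a median of 0.40. *Ndrg1* was above 0 in 6 of 11. In rods it was below the control in every CKO library, at 539 CPM in the control and 387, 439 and 535 in the CKO libraries (-0.28, p = 0.0836).

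The oxygen sensors and HIF subunits made 39 pairs, 27 above 0 and 9 at an unadjusted p under 0.05, with a median of 0.14 and 0 called by edgeR quasi-likelihood or DESeq2. *Hif1a* itself had no type with an unadjusted p under 0.05. In Müller glia it stood at 281 CPM in control and at 200.2, 216 and 365 CPM (CKO 3) in the CKO libraries, with 2 of 10 above the control (0.06, edgeR adjusted p = 0.964). In rods *Hif1a* stood at 673 CPM and at 492, 608 and 787, with 4 of 10 above (0.14). Rod bipolar cells had *Hif1a* at 270.0 CPM and at 224, 267 and 349, with 5 of 10 above (0.28). Over the 11 types its log2 fold change ran from -0.62 in astrocytes to 0.49 in horizontal cells. In batch 1, where the genotypes are compared, the 3 CKO libraries were all above the control in rods (720.0, 746 and 787 CPM) and in rod bipolar cells (325, 337 and 349), while the v5 kit libraries were all below it in rods (492 to 509).

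*Epas1* (HIF-2 alpha) stood at 111 CPM in control Müller glia and at 99.6, 126 and 150 in the CKO libraries, 8 of 10 above (-0.03). In horizontal cells it stood at 18.7 CPM and at 21.7, 45.7 and 60.9, 10 of 10 above (1.07, edgeR adjusted p = 0.761). In astrocytes it stood at 512 CPM and at 135, 264 and 410, with 0 of 8 above (-0.86). *Egln3*, a prolyl hydroxylase that is itself raised by low oxygen, was rare. In Müller glia it held 1 UMI in the control (0.662 CPM, exact 95% interval 0.0168 to 3.69) and stood at 1.63, 6.13 and 15.5 CPM in the CKO libraries (edgeR adjusted p = 0.417). All 10 lay above the control value, and the lowest of them fell inside its interval. Control rod bipolar cells held 0 UMIs of it and 7 of 10 CKO libraries lay above 0, for a batch 1 mean at least 2.13-fold the floor. In horizontal cells *Egln3* stood at 17.4 CPM and at 2.97, 15.5 and 47.2, with 4 of 10 above (-0.47).

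Other genes of the pathway were taken from 3 lists. Of 41 other HIF targets, 316 pairs were tested, 237 were above 0, 64 had an unadjusted p under 0.05 upward and 3 downward, and 1 was called up by edgeR quasi-likelihood and 4 by DESeq2. The edgeR pair, chosen after its values were seen, was *Edn2* in rods, the vasoconstrictor endothelin 2. The control rods held 0 UMIs and the CKO rods stood at 8.80 (CKO 7), 18.8 and 65.4 CPM (CKO 5), 10 of 10 above 0. The batch 1 mean was at least 76.0-fold the floor (edgeR quasi-likelihood adjusted p = 0.0434). With 0 UMIs in the control, it passed the minimum of 30 UMIs through the CKO libraries alone and could lie only above 0. For *Edn2* in rods the adjusted p passed 0.05 without CKO 1 (0.0698), CKO 2 (0.140), CKO 8 (0.112), CKO 9 (0.129), CKO 10 (0.101) or CKO 11 (0.124). Over 23 alternatives it ran from 4.47e-05 to 0.398, with 12 calls, some of them from repeated fits. *Vegfa* in Müller glia stood at 599 CPM in control and at 708, 1120 and 1767 CPM, 10 of 10 above (0.85, edgeR adjusted p = 0.338). In astrocytes *Vegfa* lay the other way, at 895 CPM in control (28 UMIs) and at 39.0, 239 and 335 in CKO nuclei, with 0 of 8 above (-1.76, p = 0.0166, edgeR adjusted p = 0.731).

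Of 30 other glycolysis genes, 237 pairs were tested, 145 were above 0, 11 had an unadjusted p under 0.05 upward and 2 downward, and 0 were called by edgeR quasi-likelihood or DESeq2. *Slc2a1* (GLUT1), the main glucose transporter of glia and vessels, stood at 116 CPM in control Müller glia and at 83.1, 138 and 202 CPM in the CKO libraries, 7 of 10 above (0.17, edgeR adjusted p = 0.934). Of 15 genes that act on or with the HIF subunits, such as *Vhl* and *Arnt*, 153 pairs were tested, 75 were above 0, 9 had an unadjusted p under 0.05 upward and 3 downward, and 0 were called by edgeR quasi-likelihood or DESeq2. Of all genes, 47.8% to 58.6% by type were above 0, and 1.88% to 5.81% had an unadjusted p under 0.05 upward. Calls up over all genes were 0.0182% by edgeR quasi-likelihood and 0.0791% by DESeq2. Whether the lists differed from the members or from all genes was not tested.

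Other RNA differed between the same libraries. In Müller glia the summed level of 5 red blood cell markers (led by *Hbb-bs*, which with *Hbb-bt* was at 0 in the control) was 3.97 CPM in the control and 42.7, 134 and 976 CPM in the CKO libraries, above in 10 of 10. In rod bipolar cells it was 6.21 CPM and 0, 90.3 and 630, above in 9 of 10, with *Hbb-bs* at 0 in the control. Cone bipolar cells (5.10 CPM against a median of 132), horizontal cells (5.34 against 159) and rods (7.21 against 163) were above in 10 of 10. The 5 fibroblast markers in Müller glia were at 1.99 CPM and 9.79, 13.9 and 30.6, led by *Pdgfra*, with *Col1a1*, *Dcn*, *Lum* and *Pdgfra* at 0 in the control, while in cone bipolar cells they were above the control in 0 of 10. Markers of rods, the most abundant type, summed to 6658 CPM in control Müller glia and to a CKO median of 6477, and the 9 Müller glia markers to 3682 and 3765. In rod bipolar cells the 6 markers of that type summed to 29143 CPM in the control and 25786 in the median CKO library. *Malat1* took 8.21% of Müller glia UMIs in the control, 5.33% to 10.5% in v4 kit CKO libraries and 1.76% to 1.99% in v5 kit ones. In rods the 10 markers of that type summed to 24993 CPM and a CKO median of 22753, above in 2 of 10. In cone bipolar cells the 7 of that type summed to 5143 and 4218, above in 1 of 10. That sum was led by *Grik1*, and singly 4 of the 7 had a CKO median above the control. Horizontal markers in Müller glia summed to 222 and 66.2, above in 1 of 10. There *Septin4* led the sum, and singly 5 of the 6 markers had a CKO median above the control. In horizontal cells the 6 markers of that type summed to 4144 CPM in control and a CKO median of 2704, above in 1 of 10, and the 8 cone markers to 90.8 and 339, above in 9 of 10. The part of these values in the results was not tested.

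The promoters of 5 genes are shown, as members that stand out in Müller glia and rod bipolar cells: the 3 called genes, *Ldha* and *Egln3*. Each is the 250 bases before the start of the gene, from RefSeq on GRCm38.p6, 5′ to 3′ on the strand of the gene, and capitals mark the letters ACGTG or GCGTG on either strand. These letters were found in 38.6% of 32851 promoter entries. Of the members, 31 had an entry and 28 of these had a match in at least 1 entry (90.32%, against 41.54% of 27025 genes). No match was found for *Eno2*, *Gpi1* and *Tpi1*, and *Epas1*, *Bnip3l*, *Ndrg1* and *Slc2a3* had no entry. A match is a description of these letters alone. *Hk2* is at chr6:82774455-82774704 (minus strand), *Pfkp* at chr13:6648772-6649021 (minus) and *Egln3* at chr12:54203875-54204124 (minus). *Aldoa* is at chr7:126799255-126799504 (minus). Of its 3 entries 2 had a match, with at most 1 match each, and 1 of these is shown. *Ldha* is at chr7:46845554-46845803 (plus). It had 2 entries, both with a match, and the entry shown has 5 matches. Each CACGTG there counts as a match on both strands, so the marked stretches are fewer than the matches.
Hk2: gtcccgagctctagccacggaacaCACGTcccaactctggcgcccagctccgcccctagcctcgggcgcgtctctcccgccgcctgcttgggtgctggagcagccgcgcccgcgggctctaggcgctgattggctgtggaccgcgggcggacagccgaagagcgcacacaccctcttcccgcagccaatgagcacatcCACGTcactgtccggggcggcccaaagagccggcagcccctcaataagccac
Pfkp: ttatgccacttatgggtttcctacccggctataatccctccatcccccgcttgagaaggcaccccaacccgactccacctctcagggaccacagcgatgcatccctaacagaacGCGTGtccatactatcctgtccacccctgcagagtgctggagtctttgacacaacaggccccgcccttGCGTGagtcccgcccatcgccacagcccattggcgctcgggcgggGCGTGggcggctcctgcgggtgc
Aldoa: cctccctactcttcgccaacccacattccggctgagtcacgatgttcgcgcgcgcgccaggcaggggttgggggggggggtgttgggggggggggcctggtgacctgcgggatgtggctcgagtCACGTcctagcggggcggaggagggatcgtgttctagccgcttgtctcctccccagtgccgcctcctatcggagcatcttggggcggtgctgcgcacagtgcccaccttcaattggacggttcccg
Ldha: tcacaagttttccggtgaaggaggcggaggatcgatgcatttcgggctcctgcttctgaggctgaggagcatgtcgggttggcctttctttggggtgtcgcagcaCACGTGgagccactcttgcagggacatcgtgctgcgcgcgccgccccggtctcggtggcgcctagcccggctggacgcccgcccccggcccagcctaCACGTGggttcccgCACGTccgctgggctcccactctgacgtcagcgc
Egln3: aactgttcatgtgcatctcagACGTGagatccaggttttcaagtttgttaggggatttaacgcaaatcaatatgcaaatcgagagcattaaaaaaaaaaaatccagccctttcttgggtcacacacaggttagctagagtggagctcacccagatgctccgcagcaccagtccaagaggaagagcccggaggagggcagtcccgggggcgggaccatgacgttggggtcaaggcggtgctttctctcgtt

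In the brain there was 1 library per genotype, so ratios carry an exact conditional binomial interval for counting error only, and no test was possible. Of 288 member and type pairs with at least 50 UMIs over both libraries, 11 were at least 2-fold higher in the CKO library and 28 at least 2-fold lower, 13.5% against 9.81% of 108227 pairs over all genes. Over all genes too, more pairs were lower (7255) than higher (3362). Ratios above 1 made 145 of the 288. A difference between the tissues was not tested. With TMM factors in place of total UMIs, the median over all genes moved by -0.10 in ECs, -0.22 in glia and GABA_22, -0.24 in astrocytes, 0.15 in oligodendrocytes, -0.17 in vSMCs, -0.12 in CP_8, 0.11 in Glut_17 and -0.20 in Glut_20. It moved by -0.62 in Glut_5, -0.35 in OPCs, -1.15 in microglia and -1.45 in pericytes. The members' median then changed sign in CP_6, CP_8, Glut_21, Glut_5, astrocytes and vSMCs, and the count of higher pairs was 7.

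Endothelial cells (ECs), the cells with Cre, had 30 members with at least 50 UMIs, 2 higher and 2 lower past 2-fold (13.4% of all genes were past it), 9 ratios above 1, and a median log2 ratio of -0.08 against 0.14 over all genes. *Egln3* had 2 UMIs in control and 65 in CKO nuclei, a ratio of 27.5 (interval 7.32 to 232). *Ndrg1* stood at 88.9 CPM in control and 198 in CKO nuclei, a ratio of 2.23 (2.01 to 2.47). *Pfkfb3* went the other way, from 9.48 to 1.46 CPM (ratio 0.154, 0.0700 to 0.305), as did *Ankrd37*, a HIF-inducible ankyrin repeat gene, from 127 to 55.2 CPM (0.436, 0.384 to 0.494). The 9 endothelial markers summed to 10945 CPM in control and 9068 in CKO nuclei, the 5 red blood cell markers to 18651 and 9060, and the 6 choroid plexus or ciliated markers to 1128 and 483. Their part in the result was not tested.

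In the mural types the depth of the CKO library was low. Among vSMCs 24 members had at least 50 UMIs, with 1 higher and 1 lower (8.11% of all genes) and a median of 0.10. *Pgk1* stood at 41.4 and 96.8 CPM (ratio 2.34, 1.41 to 3.77) and *Ankrd37* held 58 UMIs in control and 3 in CKO nuclei (0.310, 0.0621 to 0.951). Pericytes had 1 member, not past 2-fold (35.5% of all genes). With TMM factors that member was past 2-fold lower, at a log2 ratio of -1.94 against a median of -1.93 over all genes. The nuclei labelled glia, which hold fibroblast markers at 3774 CPM (control) and 3896 (CKO), had 23 members, 4 higher and 1 lower (14.7% of all genes), and a median of 0.36 against 0.05 over all genes. With TMM factors 1 was higher (*P4ha1*) and 3 lower. The median was 0.14 with TMM factors and -0.40 with a minimum of 200 UMIs. The higher ones were *P4ha1* (54.2 and 186 CPM, ratio 3.43, 2.55 to 4.62), *Gpi1* (2.18, 1.22 to 3.83), *Eno1* (2.13, 1.36 to 3.303) and *Pgam1* (2.10, 1.38 to 3.16). *Hk2* was lower (0.421, 0.174 to 0.878).

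Oligodendrocytes had 5 of 8 members past 2-fold, all lower, where 24.6% of all genes were past it, 899 lower and 60 higher. The median log2 ratio was -1.45 against -0.23 over all genes. *Ndrg1*, known from myelinating cells, had 107 UMIs in control and 3 in CKO nuclei (ratio 0.0597, 0.0121 to 0.179). *Pdk1* (0.229, 0.0887 to 0.4998), *Pfkp* (0.260, 0.125 to 0.488), *Hif1a* (0.275, 0.149 to 0.473) and *Kdm3a* (0.484, 0.257 to 0.857) were the others. The 6 oligodendrocyte markers summed to 23902 and 26140 CPM, while the 5 glutamatergic neuron markers stood at 87.7 and 17.8 CPM. The part of the latter in the result was not tested.

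Astrocytes had 14 members, 1 higher and 3 lower (15.3% of all genes), and a median of 0.16, which turned to -0.08 with TMM factors. *Pdk1* was higher (16.9 and 55.4 CPM, ratio 3.28, 1.82 to 5.96). *Pfkp* (170 and 21.8 CPM, 0.128, 0.0632 to 0.234), *Pfkm* (0.198, 0.103 to 0.347) and *Epas1* (0.320, 0.123 to 0.701) were lower. Microglia had 1 member, *Hk2*, from 77 to 3 UMIs (0.213, 0.0429 to 0.645), in a type where 79.4% of all genes were past 2-fold and the microglial markers stood at 8508 and 1571 CPM. OPCs had 2 members and 0 past 2-fold (21% of all genes).

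The other labels are named by the authors for neuron class or choroid plexus (CP). In Glut_14 the 4 GABAergic markers (981 and 901 CPM, control and CKO) exceeded the 5 glutamatergic ones (367 and 317), and in Glut_20 the 6 oligodendrocyte markers (6382 and 5524) did (1207 and 1270). In GABA_9 the glutamatergic markers (644 and 767) exceeded the GABAergic ones (449 and 460). However, *Rbfox3* was the most abundant gene of the glutamatergic list there, as it was in retinal GABAergic amacrine cells. These sums therefore do not tell the class of GABA_9. *Hif1a* was past 2-fold lower in Glut_1 (0.499, 0.378 to 0.653), Glut_11 (0.364, 0.227 to 0.562), Glut_17 (0.428, 0.254 to 0.697) and Glut_21 (0.498, 0.319 to 0.758). *Epas1* was lower in CP_6 (0.429, 0.175 to 0.920) and CP_8 (0.459, 0.242 to 0.807), and *Pfkfb4* in the same types (0.338, 0.129 to 0.749, and 0.385, 0.160 to 0.804). *Gapdh* was lower in CP_8 (0.404, 0.155 to 0.890). *Mxi1*, a Myc antagonist, was lower in Glut_1 (0.234, 0.107 to 0.457), *Egln1* in Glut_11 (0.431, 0.209 to 0.820), *Slc2a3* in Glut_21 (0.321, 0.144 to 0.649) and *Eno2* in Glut_5 (0.393, 0.125 to 0.943). *Pkm* was higher in Glut_21 (2.26, 1.34 to 3.89), *Ldhb* in GABA_9 (2.08, 1.16 to 3.77) and *P4ha2* in Glut_14 (2.02, 1.18 to 3.48). In GABA_22, with 44688 UMIs in the CKO library, *Gpi1* had 49 and 2 UMIs (0.257, 0.0303 to 0.981) and *Pfkp* stood at 0.467 (0.288 to 0.721).

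The remaining labels had few members past 2-fold. CP_6 had 0 higher and 2 lower of 27 members (4.2% of all genes past 2-fold in either direction), CP_8 0 and 3 of 18 (9.02%), and Glut_1 0 and 2 of 19 (8.44%). Glut_11 had 0 and 2 of 13 (9.38%), Glut_21 1 and 2 of 12 (3.47%), and Glut_17 0 and 1 of 12 (6.3%). GABA_22 had 0 and 2 of 3 (30%) and Glut_5 0 and 1 of 3 (23%). GABA_9 had 1 and 0 of 15 (4.09%) and Glut_14 1 and 0 of 14 (3.49%). No member was past 2-fold among 19 in Glut_0 (8.47%), 12 in Glut_19 (2.47%) and 18 in Glut_20 (10.4%). Of the other lists in the brain, the 41 HIF targets had 6 higher and 22 lower of 261 pairs, the 30 glycolysis genes 15 and 11 of 192, and the 15 genes acting on or with the HIF subunits 1 and 5 of 128. Over all genes 9.81% of pairs were past 2-fold in either direction, 3362 higher and 7255 lower of 108227.

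**Figure D4:**
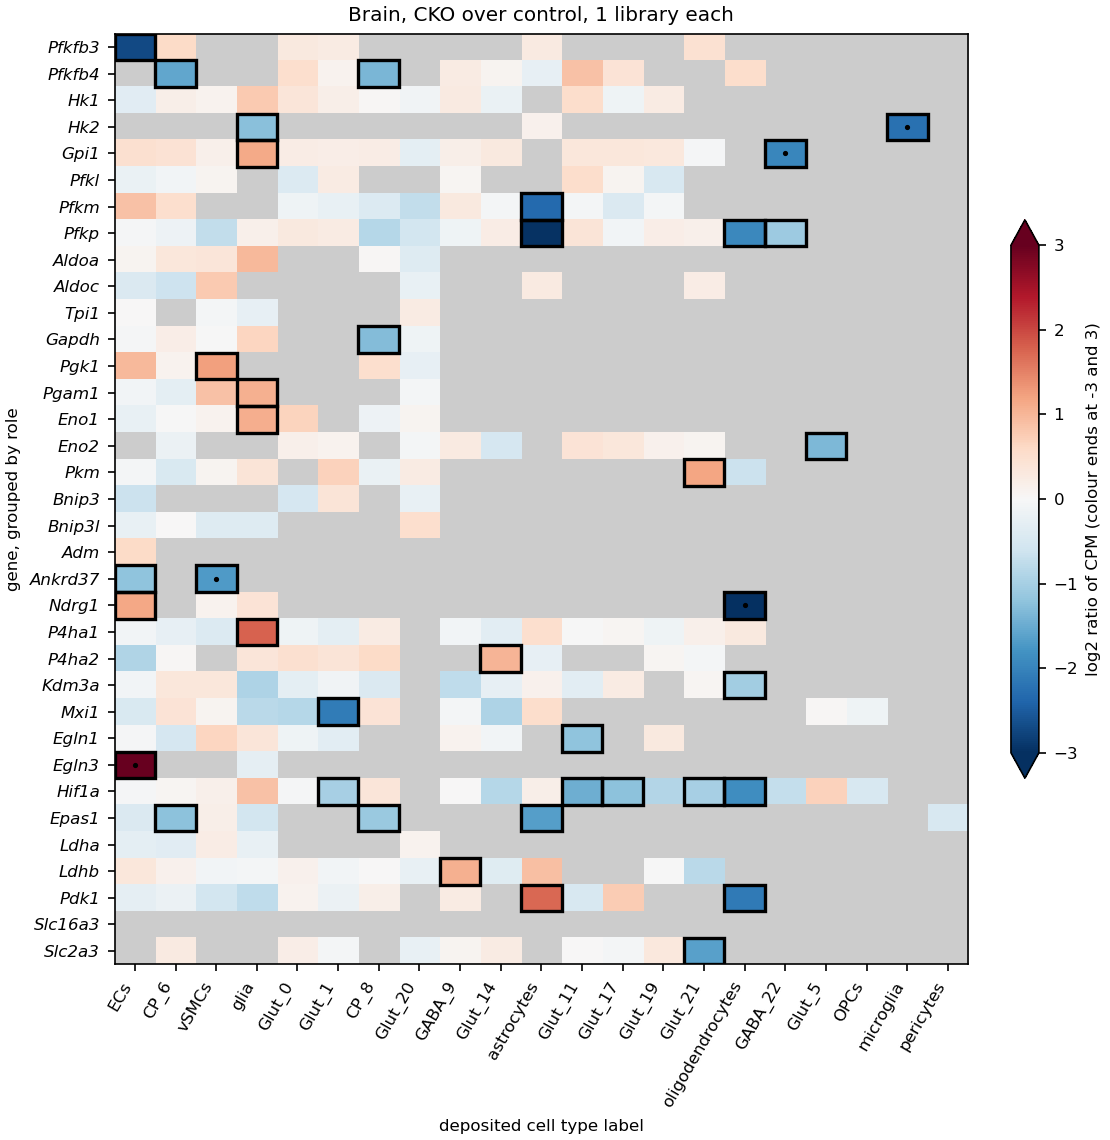
Log2 ratio of CPM (CKO over control, 1 library each) of the 35 genes, grouped by role, in the 21 brain cell types, ordered by the number of genes with at least 50 UMIs. Black outlines mark the 39 pairs past 2-fold, 11 higher and 28 lower, dots mark 3 or fewer UMIs in either library, and grey is below 50 UMIs.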

How the data were processed

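The authors aligned and counted reads with PIPseeker, removed empty droplets and background with CellBender and doublets with SOLO, and labelled nuclei in Seurat, so what was deposited is integer UMI counts, 1 value for each gene in each nucleus. Members and lists were chosen with earlier results of these data known. Counts were summed per deposited cell type label and library, with at least 10 nuclei per library and label, a control at 10 or more, and at least 30 UMIs per gene with 1 or more in batches 1 and 2 together and in batch 3. Every gene was fitted with edgeR 4.0.16 quasi-likelihood (TMM; batch, kit and genotype) in R 4.3.3, with Benjamini-Hochberg adjustment within a type. Differences from rods used limma 3.58.1 with a prior count of 2. Library medians used a pseudocount of 0.5 UMIs. Retinal intervals are exact 95% Poisson intervals and brain intervals exact conditional binomial, both for counting error alone. A count of 0 was set to a floor of 3 UMIs in the control library. The fits were tested on simulated data. The rest was done in Python 3.11.15 (scipy 1.17.1, numpy 2.4.6, matplotlib 3.10.9, pandas 2.3.3).

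Genes were named singly by a rule: in each retinal type the members called, or the one of smallest p; the 4 members of largest fold in Müller glia; *Hif1a*, *Epas1*, *Egln3* and *Slc16a3*; brain members past 2-fold; *Vegfa* and *Slc2a1*. Other genes given singly, such as *Ldha* and *Bnip3*, were chosen after their values were seen. Alternatives were the kit as sole covariate, batch 1 alone, no TMM factors, DESeq2 1.42.0, other minimums of UMIs and nuclei, adjustment over all types, leaving out libraries, and for the brain other minimums, TMM factors and a 1.5-fold limit.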

Additional observations from a re-analysis of the deposited data

Results flagged for a closer look

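Of 77 groups of 4 to 10 CKO libraries, each a gene or the members' median in a retinal cell type, 6 had a library far from the others. The rule used has a nominal rate of about 1 in 20, and the groups share libraries. *Hif1a* in Müller glia was 365 CPM in CKO 3, against 287 in the nearest library and a median of 216. *Slc16a3* in glycinergic amacrine cells was 13.1 CPM in CKO 2 (nearest 8.97, median 6.78). *Edn2* was 21.5 CPM in Müller glia of CKO 2 (nearest 11.3, median 5.87) and 65.4 CPM in rods of CKO 5 (nearest 35.02, median 18.8). *Vegfa* was 58.9 CPM in rod bipolar cells of CKO 7, below the nearest at 104 and the median of 114. In rods it was 20.1 CPM in CKO 11 (nearest 8.87, median 2.02). CKO 2 was the library apart in 2 of the 6 groups.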

How the results depend on the processing

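No paired analysis was possible because the control has 1 retinal library and 1 brain library. The 3 called pairs of gene and retinal type were kept with batch 1 alone, without TMM factors, by DESeq2, with no filter beyond 1 UMI, with at least 50 nuclei, without CKO 4 and CKO 5, and with nuclei of at least 1000 UMIs. They were also kept without CKO 6 and CKO 7, an alternative which, like the v4 kit libraries alone, was chosen after seeing the data. For these pairs a minimum of 50 nuclei leaves the main fit as it was. Leaving out CKO 4 and CKO 5 is the same as leaving out CKO 5, since CKO 4 is not in these fits.

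The counts moved elsewhere, and the cause was not tested. With the kit alone, 0 pairs in 0 types were called (0 in rod bipolar cells, 0 in Müller glia) and the astrocyte median was 1.22. DESeq2 called 15 pairs in 4 types: rods 4, rod bipolar cells 4, Müller glia 3 and cone bipolar cells 4. A minimum of 100 UMIs, so fewer genes, left 1 pair in 1 type (rod bipolar cells 0), with an astrocyte median of 0.72. With no filter beyond 1 UMI, 43 pairs in 7 types were called, where the share of all genes called up went from 0.0182% to 0.224%: rods 6, rod bipolar cells 11, Müller glia 8, horizontal cells 3, cone bipolar cells 13, glycinergic amacrine cells 1 and GABAergic amacrine cells 1. A minimum of 50 nuclei gave 6 pairs (horizontal cells 3), where 0.0370% of all genes were called up, and no value for astrocytes and immune cells. The v4 kit libraries alone gave 1 call in rod bipolar cells, 0 in Müller glia, 1 in cone bipolar cells and an astrocyte median of 0.76. Adjustment over all types left 1 pair in 1 type (rod bipolar cells 0). The astrocyte median reversed to -0.13 with batch 1 alone and to -1.31 without CKO 1. A prior count of 0.5 gave 1 difference from rods.

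Leaving out each CKO library in turn gave 1 to 14 pairs up and 0 down in 1 to 3 types: 0 to 7 in rod bipolar cells (7 without CKO 10, 0 without CKO 2, CKO 8, CKO 9 or CKO 11), 1 to 3 in Müller glia (3 without CKO 3) and 0 to 5 in cone bipolar cells (5 without CKO 10). Medians ran from -1.31 to 1.69 in astrocytes, 0.66 to 0.90 in rods, 0.72 to 0.99 in rod bipolar cells, 0.66 to 0.95 in Müller glia and 0.01 to 0.58 in cones.

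In the brain, pairs at least 2-fold higher were 25 with a minimum of 20 UMIs, 1 with 200 and 7 with TMM factors. Lower pairs were 4 with a minimum of 200 UMIs, 5 in total. At 1.5-fold there were 26 higher and 45 lower, 71 in all. The median was 0.26 in Glut_14 and -0.40 in glia with 200 UMIs, and -0.38 in Glut_20 and -0.073 in vSMCs with TMM factors.

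The control is 1 library per tissue, and genotype is compared within batch 1. Within the retina, depth limits astrocytes and immune cells most. In the brain, CKO pericytes (9213 UMIs) and microglia (14637) are the shallowest, and brain intervals cover counting error alone.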
